A study of Mus musculus with 10 samples.

Results

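The IGKV8 genes are a family of variable (V) gene segments of the mouse immunoglobulin kappa light chain locus (Igk). The 7 genes examined were IGKV8-16, IGKV8-19, IGKV8-21, IGKV8-24, IGKV8-27, IGKV8-28 and IGKV8-30. Below, IGKV8 and the family mean these 7 genes only. Other genes of this name, such as IGKV8-18, IGKV8-26 and IGKV8-34, were not among them and count with the other V genes. A clonotype was assigned to one of them only where that gene was the single V gene listed for it. This gave 4863 of the 44103 Igk clonotypes in 6 libraries. The share ran from 10.02% to 12.3% of the clonotypes of a library. IGKV8-19 had 0 clonotypes of its own in every library, so 6 genes carried all of these values. For clonotypes of this gene alone, 0 allows a share of up to 0.0347% to 0.0526% by the floor of 3 clonotypes. Clonotypes listed with IGKV8-19 and another V gene made up 0.246% to 0.589% of a library and were counted to no gene. The floor therefore does not bound the share of IGKV8-19 itself.

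The libraries were made from genomic DNA of peritoneal cavity B cells sorted from C57BL/6 mice 6 to 8 weeks old. There were 2 libraries each of wild-type B-1a cells (B220lo CD5+), B-1a cells from Igll1-/- mice and wild-type B-2 cells (B220+). Igll1 encodes lambda5, a component of the surrogate light chain, and mice without it form no pre-B-cell receptor. Rearranged Igk genes were amplified with a degenerate V primer and additional primers for some V genes favoured in B-1a cells, and products of 100 to 280 bp were kept. The share of a V gene therefore depends on its primers as well as on the cells, and shares of J genes may depend on primers and product size. The tables hold no transcript levels, so neither the sort nor the Igll1 deletion could be checked in them. The labels do not say whether libraries of a group came from separate animals, and p-values measure only the spread between these libraries, which may be technical.

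A kappa light chain gene is made by joining 1 V segment to 1 J segment, and the junction together with the end of the V segment encodes the third complementarity-determining region (CDR3), which contributes to antigen binding. Germline-encoded residues therefore recur at the start of the CDR3 of every gene. A further V segment may later join a downstream J segment, replacing the first light chain of a cell. The last J of the locus, IGKJ5, is then a frequent partner. In the RefSeq annotation of GRCm38.p6, the 7 genes lie in a stretch of 16 Igkv genes from Igkv8-30 to Igkv8-16, together with 4 other Igkv8 and 5 Igkv6 genes and 0 genes of other families. The tables name no genome build, so no coordinates are given.

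The most abundant productive CDR3 of each gene is shown because the reads of every gene gathered on a small set of related sequences. The clonotypes below held the most reads of their gene over all 6 libraries, and all 6 joined to IGKJ5.
IGKV8-16: QQHLHIPLT
IGKV8-21: KQSYNLLT
IGKV8-24: QQHYSTPLT
IGKV8-27: HQYLSSLT
IGKV8-28: QNDHSYPLT
IGKV8-30: QQYYSYPLT
Over the productive reads of a gene, the first 4 residues of its CDR3 above were found in 97.4% (QNDH of IGKV8-28) to 98.5% (QQHL of IGKV8-16). The usual CDR3 length over all libraries was 8 residues for IGKV8-21 and IGKV8-27 and 9 residues for the other 4 genes. A different sequence, QNDYSYPLT, led the clonotypes that were listed jointly as IGKV8-19 or IGKV8-28, and these belong to neither gene here.

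By clonotypes, IGKV8-30 was the most used gene of the family in all 6 libraries and ranked between 2 and 6 among all Igkv genes. It made up 5.32% and 3.73% of clonotypes in wild-type B-1a, 7.12% and 5.99% in Igll1-/- B-1a and 3.44% and 3.07% in wild-type B-2 libraries. Both Igll1-/- libraries were above the other 4. However, 166 of the 406 clonotypes of Igll1-/- replicate 1 carried a stop-containing insert described below. Without the insert this library stood at 4.21%, under wild-type B-1a replicate 1 (5.29%). By reads IGKV8-24 exceeded IGKV8-30 in both wild-type B-2 libraries (4.37% against 4.26%, and 4.85% against 3.89%). By clonotypes IGKV8-24 came next with 3.01% and 2.83%, then 2.86% and 1.61%, and then 2.90% and 2.95% in the same order of groups, so that 1 Igll1-/- library stood below the other 5. IGKV8-21 lay between 0.895% and 1.81%, IGKV8-28 between 0.403% and 1.56% and IGKV8-27 between 0.684% and 1.14%. IGKV8-16 was rare, with 4 to 18 clonotypes a library. The order of neighbouring genes was not always resolved. In Igll1-/- replicate 2, IGKV8-24 (1.61%, 95% Wilson interval 1.34 to 1.94) and IGKV8-21 (1.56%, 1.29 to 1.88) could not be separated at this depth, and in wild-type B-1a replicate 2 IGKV8-28 (1.24%) and IGKV8-21 (1.21%, 0.975 to 1.49) could not either. Such intervals cover counting error only, because no molecular barcode marks the original rearrangements.

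**Figure D1:**
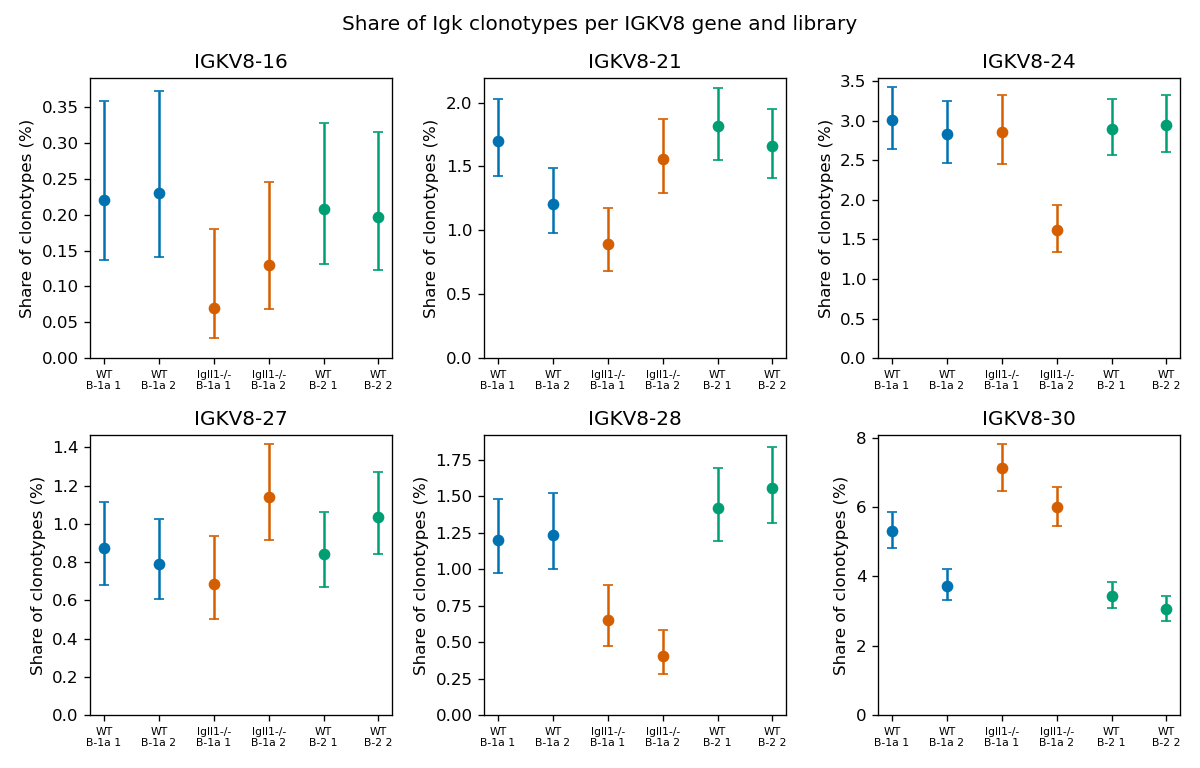
Share of Igk clonotypes (y axis, percent of all clonotypes of the library, each panel on its own scale from 0) for the 6 IGKV8 genes with clonotypes of their own, by library (x axis). Points are single libraries and bars are 95% Wilson intervals; IGKV8-28 is lowest in both Igll1-/- B-1a libraries (0.649% and 0.403%) and IGKV8-30 highest in them (7.12% and 5.99%), though the former is 4.21% without clonotypes that carry a stop-containing insert.

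Summed over the 6 genes, the wild-type B-1a libraries held 11.2% ± 1.63 (SD, n = 2) of clonotypes on IGKV8. The figure for Igll1-/- B-1a libraries was 11.6% ± 1.02 (SD, n = 2). Wild-type B-2 libraries stood at 10.5% ± 0.12 (SD, n = 2), so the groups differed by less than the spread within the B-1a groups. By reads the shares were 14.1% and 10.5%, 12.9% and 14.8%, and 13.4% and 13.5%. After near-identical clonotypes were merged, as defined below, the clonotype shares were 10.8% and 8.85%, 9.85% and 7.64%, and 9.34% and 8.98%. Of the 700 IGKV8 clonotypes of Igll1-/- replicate 1, 170 carried a stop-containing insert described below. The sum of that library (12.3%) includes them. Single genes within the sum moved in opposite directions. Each gene was therefore compared in a fit over the 84 Igkv genes that reached 10 clonotypes in 2 or more libraries, scaled by all clonotypes of each library.

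In Igll1-/- B-1a against wild-type B-1a cells, 1 of the 6 IGKV8 genes tested was called at an adjusted p-value under 0.05 by edgeR's quasi-likelihood test, against 15 of 84 Igkv genes (17.9%), of which 7 were higher (8.33%) and 8 lower (9.52%). The gene was IGKV8-28, which was lower in Igll1-/- cells. Against wild-type B-2 cells, 2 of 6 were called in Igll1-/- B-1a cells, IGKV8-28 lower and IGKV8-30 higher, beside 19 of 84 genes (22.6%), 6 higher (7.14%) and 13 lower (15.5%). Between wild-type B-1a and B-2 cells, 0 of 6 were called by edgeR (1 had an unadjusted p under 0.05, and DESeq2 called 0), beside 3 of 84 genes (3.57%). Over all 84 genes, 18 (21.4%) had an unadjusted p under 0.05 and DESeq2 called 4 (4.76%). The 3 comparisons share libraries and are not independent of each other. The median log2 fold change of the 6 genes was −0.32, −0.44 and −0.09 in the 3 comparisons, beside −0.17, −0.49 and −0.22 over all 84 genes. Scaling matters here, since TMM factors raised the median of all genes by 0.26, 0.46 and 0.20. With TMM the calls over all genes against wild-type B-2 went from 6 higher and 13 lower to 7 higher and 1 lower (8 higher and 0 lower with DESeq2), and those against wild-type B-1a from 7 higher and 8 lower to 10 higher and 6 lower (8 and 6 with DESeq2).

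IGKV8-28 had 87 and 86 clonotypes in wild-type B-1a, 37 and 28 in Igll1-/- B-1a and 123 and 134 in wild-type B-2 libraries. As shares these were 1.20% (95% Wilson interval 0.976 to 1.48) and 1.24%, then 0.649% (0.471 to 0.893) and 0.403% (0.279 to 0.582), and then 1.42% (1.19 to 1.69) and 1.56% (1.32 to 1.84). Both Igll1-/- libraries were below the other 4 libraries. The log2 fold change was −1.22 (SE 0.37) against wild-type B-1a and −1.51 (SE 0.37) against wild-type B-2 cells, with edgeR adjusted p-values of 0.0419 and 0.0159. Relative to the median of all genes the changes were −1.05 and −1.02. Wild-type B-1a and B-2 cells differed by −0.29 (SE 0.35, edgeR adjusted p = 0.735). The sign held in all 19 alternatives of both Igll1-/- comparisons, and the call in 8 of them against wild-type B-1a and 13 against wild-type B-2. Against wild-type B-1a the edgeR adjusted p was 0.0985 with TMM, 0.111 by reads, 0.162 for clonotypes of at least 2 reads, 0.0627 for productive clonotypes alone and 0.0649 without a stop-containing insert described below, and 0.114 with DESeq2. It was 0.168 and 0.140 without wild-type B-1a replicate 1 or 2, and 0.106 and 0.112 without wild-type B-2 replicate 1 or 2. Against wild-type B-2 the call ended with TMM (0.0896), with DESeq2 (0.09999) and without any 1 of the 4 wild-type libraries (0.0638 to 0.141).

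IGKV8-30, counted with all its clonotypes, was higher in Igll1-/- B-1a than in wild-type B-2 cells by 1.01 (SE 0.17) on the log2 scale (edgeR adjusted p = 0.00165). Against wild-type B-1a cells the change was 0.53 (SE 0.17, edgeR adjusted p = 0.0543), and between wild-type B-1a and B-2 cells it was 0.48 (SE 0.17, edgeR adjusted p = 0.141). Relative to the median of all genes these were 0.71 against wild-type B-1a and 0.70 between the wild-type groups. The change against wild-type B-1a cells depended on which clonotypes were counted. It was 0.79 (edgeR adjusted p = 0.0130) with TMM, 0.68 (0.00827) for clonotypes of at least 2 reads, 0.17 (0.575) for productive clonotypes alone and 0.32 (0.425) after near-identical clonotypes were merged. Against wild-type B-2 cells it remained called for productive clonotypes alone, at 0.65 (edgeR adjusted p = 0.0263), and lost the call by reads (1.03, adjusted p = 0.0884) and for unproductive clonotypes alone (2.14, adjusted p = 0.0724). Without Igll1-/- replicate 1 or 2, the change against wild-type B-1a was called (edgeR adjusted p = 0.0428 and 0.000303), and so was that between the wild-type groups (0.00404 and 0.0033). The wild-type groups alone then supply the spread, and the lone Igll1-/- library is assumed to vary like them.

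The other 4 genes were not called in any of the 3 comparisons with all 6 libraries. IGKV8-16 had 16 and 16 clonotypes in wild-type B-1a, 4 and 9 in Igll1-/- B-1a and 18 and 17 in wild-type B-2 libraries, so both Igll1-/- values were the lowest. Its log2 fold changes in Igll1-/- cells were −1.13 (SE 0.54, edgeR adjusted p = 0.183) and −0.98 (SE 0.54, edgeR adjusted p = 0.202) against wild-type B-1a and B-2. For IGKV8-21, IGKV8-24 and IGKV8-27 the Igll1-/- replicates lay apart, at 51 and 108, 163 and 112, and 39 and 79 clonotypes, and their log2 fold changes ran from −0.50 to 0.14 over the 3 comparisons. Calls were gained when 1 Igll1-/- library was left out. Without replicate 1, IGKV8-24 was lower by −0.86 against both wild-type groups (edgeR adjusted p = 0.000363 and 0.000374). Without replicate 2, IGKV8-16 was called lower against wild-type B-1a and B-2 (edgeR adjusted p = 0.0326 and 0.0464) and IGKV8-21 against wild-type B-2 (edgeR adjusted p = 0.00579). In these fits the single Igll1-/- library is assumed to vary like the other groups. The signs of IGKV8-21, IGKV8-24 and IGKV8-27 each changed in at least 1 comparison under TMM or DESeq2 scaling.

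**Figure D2:**
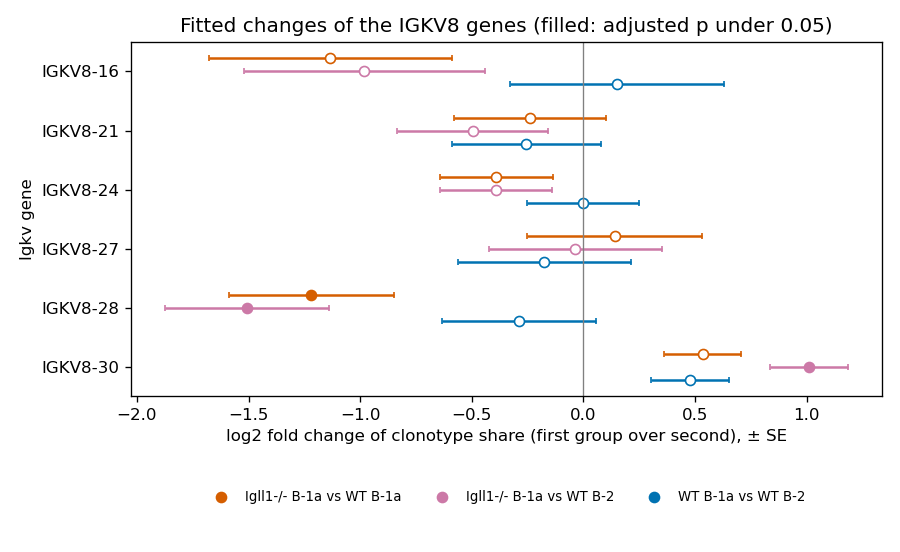
Log2 fold change of the clonotype share (x axis, first group of the comparison over the second) with its standard error for 6 IGKV8 genes (y axis) in 3 comparisons of 2 libraries against 2. Filled points have an edgeR adjusted p under 0.05: IGKV8-28 at −1.22 and −1.51 in both Igll1-/- comparisons, and IGKV8-30 at 1.01 against wild-type B-2 cells.

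The J partner was examined next, because a change of a V gene may rest on 1 of its joints. IGKV8-28 joined to IGKJ5 in 75 and 65 clonotypes of wild-type B-1a, 16 and 22 of Igll1-/- B-1a and 79 and 86 of wild-type B-2 libraries. Its IGKJ2 joints numbered 10 and 16, 18 and 5, and 34 and 32, so that in Igll1-/- replicate 1 IGKJ2 was the more frequent partner. IGKV8-28 with IGKJ1 was rare in every B-1a library, with 1, 3, 1 and 0 clonotypes, against 9 and 14 in wild-type B-2, too few for the test. Of 202 V-J pairs tested, 14 held an IGKV8 gene. IGKV8-28 with IGKJ5 was lower in Igll1-/- B-1a cells by −1.71 (SE 0.32) against wild-type B-1a (edgeR adjusted p = 0.00777) and by −1.67 (SE 0.32) against wild-type B-2 (edgeR adjusted p = 0.0114). In wild-type B-1a against B-2 cells this pair stood at 0.04 (SE 0.29, edgeR adjusted p = 0.932). IGKV8-28 with IGKJ2 stood at 0.04 (SE 0.67) and −1.01 (SE 0.63) in the same Igll1-/- comparisons and was not called. The IGKJ5 pair stayed below the threshold for productive clonotypes alone (0.00772 and 0.0135), by reads (0.0480 and 0.0313) and with TMM (0.0136 and 0.0409). The call against wild-type B-1a ended without either wild-type B-1a library (0.0784 and 0.102), and that against wild-type B-2 with DESeq2 (0.141) and without any 1 wild-type library (0.0509 to 0.184).

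IGKV8-30 with IGKJ5 had 206 and 131 clonotypes in wild-type B-1a, 308 and 232 in Igll1-/- B-1a and 155 and 125 in wild-type B-2 libraries. Both Igll1-/- libraries exceeded the others. Without the stop-containing insert the numbers were 204 and 128, 144 and 231, and 153 and 122, and Igll1-/- replicate 1 no longer did. Counted with the insert, the pair was higher in Igll1-/- B-1a than in wild-type B-2 cells by 1.43 (SE 0.30, edgeR adjusted p = 0.0160), while the change against wild-type B-1a was 0.88 (SE 0.30, edgeR adjusted p = 0.0959) and 0.35 without the insert. The call against wild-type B-2 ended for productive clonotypes alone (0.87, edgeR adjusted p = 0.0560), by reads (0.0638), with no filter (0.0621), without the insert (0.90, 0.0512) and without any 1 wild-type library (0.0791 to 0.162). The IGKJ1 and IGKJ2 joints of IGKV8-30 changed by −0.11 to 0.48 in these comparisons and were not called. Thus 1 and 2 of the 14 pairs were called in the Igll1-/- comparisons with wild-type B-1a and B-2, where 21 (10.4%) and 25 (12.4%) of all 202 pairs were. The former were 7 higher (3.47%) and 14 lower (6.93%), and the latter 9 higher (4.46%) and 16 lower (7.92%). In wild-type B-1a against B-2 cells 0 of 14 were called by edgeR (1 had an unadjusted p under 0.05, and DESeq2 called 0), beside 6 of 202 (2.97%), 5 of them higher (2.48%) and 1 lower (0.495%). Over all 202 pairs, 39 (19.3%) had an unadjusted p under 0.05 and DESeq2 called 7 (3.47%). Over all IGKV8 clonotypes IGKJ5 took 59.1% and 55.2% in wild-type B-1a, 65.4% and 53.2% in Igll1-/- B-1a and 50.7% and 49.7% in wild-type B-2 libraries. The 65.4% was 54.7% without the insert. Among the clonotypes of all other single V genes it took 50.5% and 51.4%, 49.4% and 47.1%, and 46.9% and 45.4%. Over all clonotypes of a library IGKJ5 took 46.1% to 51.7% and IGKJ4 only 1.02% to 1.67%. How far primers or product size set these J shares was not tested.

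**Figure D3:**
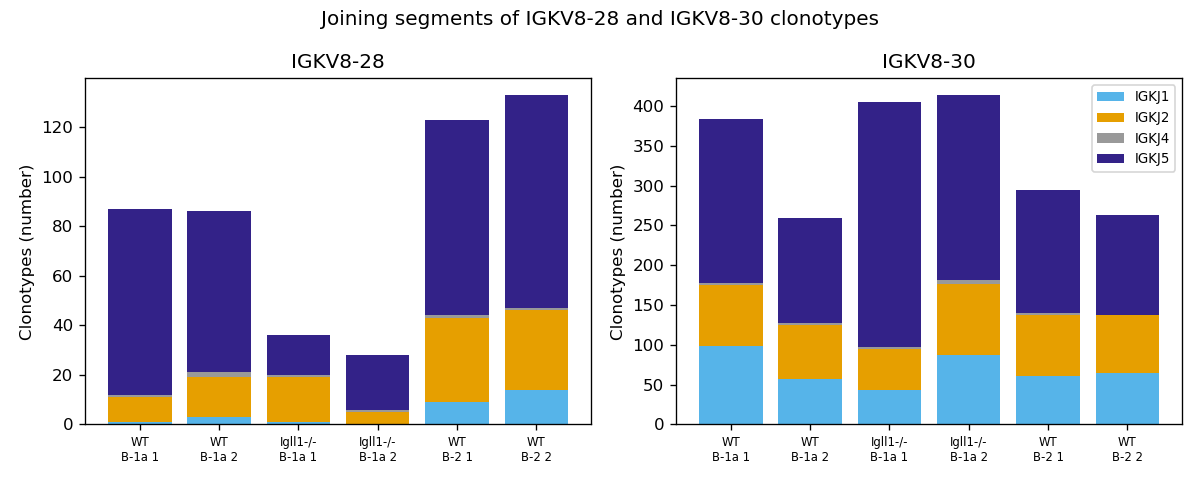
Number of clonotypes (y axis, from 0) of IGKV8-28 and IGKV8-30 in each library (x axis), stacked by J segment; clonotypes listed with several J segments are left out. The IGKJ5 part of IGKV8-28 is 16 and 22 in Igll1-/- B-1a and 65 or more in every other library, and IGKV8-28 with IGKJ1 numbers 0 to 3 in the B-1a libraries and 9 and 14 in wild-type B-2.

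The productive share, the percent of clonotypes read in frame with no stop codon, was then compared. IGKV8-30 was productive in 85.5% and 83.8% of its clonotypes in wild-type B-1a, 49.0% and 86.5% in Igll1-/- B-1a and 87.2% and 85.6% in wild-type B-2 libraries. Igll1-/- replicate 1 stood far below the other 5. In that library 207 of 406 clonotypes were unproductive, and 165 of the 207 carried 1 stop-containing insert in the CDR3. It was found by its residues RPGSLFLSAGL with at most 1 mismatch. By this match 166 of the 406 carried it, whether called productive or not. The insert is shown because it separated this library from the other 5, with the leading sequence that carried it in IGKV8-30 and in 2 other genes. An asterisk marks a stop codon.
IGKV8-30 in Igll1-/- B-1a replicate 1, 2551 reads: QQYYSYPAG*RPGSLFLSAGL*LSSLT
IGKV8-28 in wild-type B-2 replicate 2, 137 reads: QNDHSYPPG*RPGSLFLSAGL*LSLT
IGKV8-24 in wild-type B-1a replicate 2, 31 reads: QQHYSTPAG*RPGSLFLSAGL*LSLT
The same 27-residue CDR3 of IGKV8-30 had 1 read and 9 reads in the wild-type B-1a libraries, 4 in the other Igll1-/- and 2 and 1 in wild-type B-2 libraries. Unproductive IGKV8-30 clonotypes with the insert numbered 2 and 6, 165 and 1, and 2 and 7 in the 3 groups. In IGKV8-30 the insert was thus present in every library and frequent in 1. In IGKV8-28 it was carried by 15 clonotypes of wild-type B-2 replicate 2 and 3 of replicate 1. It was also in 4 and 5 IGKV8-28 clonotypes of the wild-type B-1a libraries and 1 of Igll1-/- replicate 2. Without the insert the share of IGKV8-30 was 5.29% and 3.65%, 4.21% and 5.98%, and 3.42% and 2.98% of clonotypes. The Igll1-/- libraries then overlapped the wild-type B-1a libraries. The change of IGKV8-30 against wild-type B-1a became 0.21 (SE 0.20, edgeR adjusted p = 0.514) and that against wild-type B-2 0.69 (SE 0.20, edgeR adjusted p = 0.0363). This alternative was chosen after the insert was seen. In Igll1-/- replicate 1, 182 unproductive IGKV8-30 clonotypes had 27 residues, while 165 unproductive ones were matched to the insert. Some clonotypes of this length therefore stay in its 4.21% and in these fits.

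**Figure D4:**
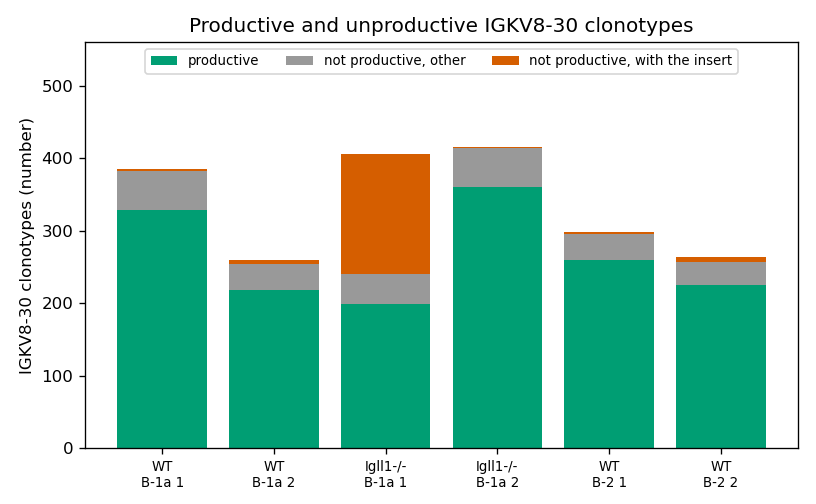
Number of IGKV8-30 clonotypes (y axis, from 0) in each library (x axis), divided into productive clonotypes, unproductive clonotypes with the stop-containing insert and other unproductive clonotypes. Igll1-/- B-1a replicate 1 holds 165 with the insert, against 1 to 7 in the other 5 libraries.

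The other genes were mostly productive, with IGKV8-21 out of line in 1 library. IGKV8-21 was productive in 78.9% and 95.2% of clonotypes in wild-type B-1a libraries and in 91.7% to 94.4% in the other 4. For clonotypes of at least 2 reads, wild-type B-1a replicate 1 stood at 93.0%, within the range of the other libraries (91.8% to 98.4%). By reads it stood at 96.1%. IGKV8-16, IGKV8-24 and IGKV8-27 ranged from 88.9% to 100.0%. IGKV8-28 was productive in 85.1% and 81.4% in wild-type B-1a, 91.9% and 85.7% in Igll1-/- B-1a and 85.4% and 77.6% in wild-type B-2 libraries. In wild-type B-2 replicate 2, 30 IGKV8-28 clonotypes were unproductive and 15 carried the stop-containing insert. How far the insert sets the 77.6% was not tested. All other single V genes together lay between 85.9% and 89.0%. Over the 6 genes and 3 comparisons, 18 exact two-sided permutation tests gave no p below 0.333, the smallest that 2 libraries against 2 allow, and every adjusted p was 1. Clonotypes of the same CDR3 can differ in this call. For IGKV8-21 with IGKJ2 and the CDR3 KQSYNLYT, the productive form held 230, 318, 209, 0, 827 and 1137 reads in the order of groups and replicates above, and an unproductive form held 384 reads in Igll1-/- replicate 2 alone.

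CDR3 length varied between groups in IGKV8-24. Productive clonotypes of 8 residues, 1 shorter than usual, numbered 48 and 18 in wild-type B-1a, 3 and 3 in Igll1-/- B-1a and 27 and 22 in wild-type B-2 libraries. They were 24.5% and 10.2%, 2.03% and 2.91%, and 11.5% and 9.28% of the productive IGKV8-24 clonotypes, so both Igll1-/- libraries were below the other 4. The clonotype of this length with the most reads was QQHYSTLT with IGKJ5. The wild-type B-1a libraries held 2227 and 122 reads of it, with 1 and 2 in Igll1-/- B-1a and 5 and 40 in wild-type B-2 libraries, which places most of its reads in 1 library. IGKV8-24 clonotypes of 9 residues numbered 134 and 137, 138 and 96, and 181 and 181.

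Because of this, and after these values were seen, productive clonotypes were counted by V gene and CDR3 length. Among 134 such groups IGKV8-24 of 8 residues was lower in Igll1-/- than in wild-type B-1a cells by −3.24 (SE 0.66, edgeR adjusted p = 0.0208), and it was the only one of 14 IGKV8 groups called, beside 13 of 134 (9.7%), 6 higher (4.48%) and 7 lower (5.22%). It stood at −2.51 (SE 0.67, edgeR adjusted p = 0.0777) against wild-type B-2. There 0 of 14 IGKV8 groups were called by edgeR, beside 8 of 134 (5.97%), 6 higher (4.48%) and 2 lower (1.49%). Of the 14, 4 (28.6%) had an unadjusted p under 0.05, near the share over all groups (36 of 134, 26.9%). DESeq2 called 1 of 9 IGKV8 groups with an adjusted p, beside 10 of 100 in all. Between wild-type B-1a and B-2 cells 0 of 14 were called by edgeR (0 with an unadjusted p under 0.05, and 0 by DESeq2), beside 3 of 134 (2.24%). Over all 134 groups, 17 (12.7%) had an unadjusted p under 0.05 and DESeq2 called 5 (3.73%). The call against wild-type B-1a ended without wild-type B-1a replicate 1 (−2.40, edgeR adjusted p = 0.129) and without wild-type B-2 replicate 1 (−3.24, adjusted p = 0.0569). It held after near-identical clonotypes were merged (−2.03, edgeR adjusted p = 0.0098) and for clonotypes of at least 2 reads (−4.44, edgeR adjusted p = 0.0266), with a different size. Against wild-type B-2 a call was gained after merging (−1.71, edgeR adjusted p = 0.0279) and without wild-type B-1a replicate 2 (−2.51, edgeR adjusted p = 0.0443). IGKV8-24 of 9 residues stood at −0.02 (SE 0.26) and −0.12 (SE 0.25). IGKV8-21 of 7 residues, also 1 shorter than usual, stood at −1.79 (SE 0.61, edgeR adjusted p = 0.116) against wild-type B-1a and −1.49 (SE 0.61, edgeR adjusted p = 0.164) against wild-type B-2. Its leading sequence KQSYNLT with IGKJ5 held 213 and 232, 3 and 0, and 564 and 307 reads. IGKV8-30 of 8 residues was the remaining tested group 1 shorter than usual. It stood at −0.90 (SE 0.55, edgeR adjusted p = 0.365) against wild-type B-1a and −0.01 (SE 0.56, edgeR adjusted p = 0.981) against wild-type B-2.

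**Figure D5:**
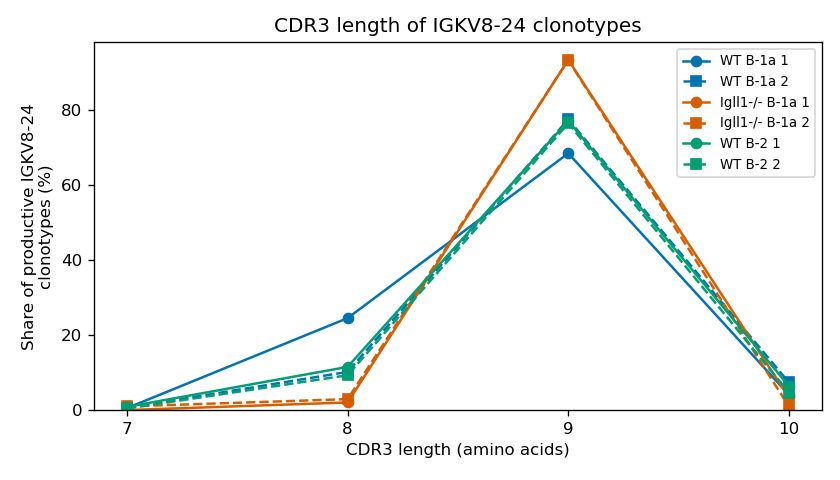
Share of productive IGKV8-24 clonotypes (y axis, percent) by CDR3 length (x axis, amino acids) in each library; lengths under 7 or over 10 residues are not drawn. At 8 residues the Igll1-/- B-1a libraries lie at 2.03% and 2.91% and the other 4 between 9.28% and 24.5%.

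At the level of single clonotypes, QQYYSYPLT of IGKV8-30 with IGKJ5 held the most reads of the family in 3 of 6 libraries and QQHYSTPLT of IGKV8-24 in the other 3. QQYYSYPLT had 8500 and 5313 reads in the wild-type B-1a libraries, 5949 and 11787 in Igll1-/- B-1a and 5031 and 5073 in wild-type B-2 libraries, of 214000 to 288396 reads a library. QQHYSTPLT held 5549 and 4059, 6026 and 2123, and 7382 and 7696 reads, and led in Igll1-/- replicate 1 and both wild-type B-2 libraries. QNDHSYPLT of IGKV8-28 held 1257 and 1589, 469 and 610, and 3072 and 3289 reads, lowest in Igll1-/- B-1a and highest in wild-type B-2 cells. HQYLSSLT of IGKV8-27 held 725 and 761, 423 and 1612, and 757 and 934 reads. The largest clonotype of IGKV8-21 was not the same everywhere. KQSYNLLT with IGKJ5 led in both libraries of wild-type B-1a (1380 and 1697 reads) and of wild-type B-2 cells (1654 and 1717), KQSYNPLT with IGKJ5 in Igll1-/- replicate 1 (607 reads, against 3 to 253 elsewhere) and KQSYNLWT with IGKJ1 in Igll1-/- replicate 2 (2440 reads, against 83 to 616 elsewhere). In IGKV8-28, QNDHSYPYT with IGKJ2 led in Igll1-/- replicate 1 with 586 reads. The largest clonotype took between 25.7% and 85.6% of a gene's reads in a library, the latter for QNDHSYPLT in Igll1-/- replicate 2.

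The reads of 1413 clonotypes with at least 10 reads in at least 2 libraries were compared in the same way, and 143 of these carried an IGKV8 gene. Of the 143, 0 were called by edgeR in any comparison, where 1 (0.0708%), 0 (0.0%) and 1 (0.0708%) of all 1413 were called in the 3 comparisons in the order above. Among the 143, 17 (11.9%), 28 (19.6%) and 15 (10.5%) had an unadjusted p under 0.05, beside 20.0%, 27.3% and 15.8% of all 1413. DESeq2 called 10 of 136, 16 of 112 and 5 of 119 IGKV8 clonotypes with an adjusted p, beside 162 of 1248, 182 of 1057 and 50 of 1111 in all. The smallest edgeR adjusted p of an IGKV8 clonotype was 0.119.

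Few IGKV8 clonotypes were present in all 6 libraries, but these held most of the productive reads. Of 2217 productive clonotypes, taken as V gene, J gene and CDR3, 131 (5.91%) were present in all 6 libraries and held 88.8% of the productive IGKV8 reads, while 1460 (65.9%) were present in 1 library. Among the other single V genes 719 of 18341 (3.92%) were present in all 6 and held 80.9% of reads. IGKV8-30 had the most in all libraries (61 of 833) and IGKV8-16 the fewest (2 of 42). In the Igll1-/- libraries the shared IGKV8 clonotypes held 95.8% and 91.7% of reads, against 89.1% and 88.2% in wild-type B-1a and 85.4% and 84.6% in wild-type B-2 libraries. The other V genes held 87.9% and 86.4%, 77.9% and 78.0%, and 76.6% and 79.6% (wild-type B-1a second, wild-type B-2 last). In both sets the Igll1-/- libraries were the highest. Presence meant at least 1 read. QQYYSYPIT of IGKV8-30 with IGKJ5 counted as shared with 1687 reads in Igll1-/- replicate 2 and 1 to 8 elsewhere. Igll1-/- replicate 1 had the fewest clonotypes (5701) and reads (214000). The shared set was thus chosen partly through it, and no group difference is drawn from these shares.

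Many clonotypes were seen once. Between 51.7% and 60.4% of the IGKV8 clonotypes of a library rested on 1 read. Identity to the germline V gene had a median of 95.5% to 100.0% for clonotypes of at least 10 reads of each gene and library, and of 87.6% to 91.0% for those of 1 read. When clonotypes 1 residue apart from another with at least 10 times the reads were merged, the IGKV8 clonotypes fell from 892 and 698 to 303 and 251 in wild-type B-1a, from 700 and 752 to 218 and 201 in Igll1-/- B-1a and from 920 and 901 to 315 and 307 in wild-type B-2 libraries. IGKV8-28 was still called after merging, with edgeR adjusted p-values of 0.0477 against wild-type B-1a and 0.00477 against wild-type B-2 cells.

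The genes around the 7 were taken as every other Igkv gene with a name numbered 13 to 34. Of these, 12 had clonotypes of their own and 9 were tested. The list includes IGKV8-18, IGKV8-26 and IGKV8-34, which are IGKV8 genes by name. IGKV8-34 averaged 0.773% of clonotypes in Igll1-/- B-1a and 0.327% in wild-type B-1a cells. Its log2 fold change was 1.24 (SE 0.50, edgeR adjusted p = 0.119), and it was not called. In Igll1-/- against wild-type B-1a cells 1 of the 9 was called lower and 0 higher, beside 8 lower (9.52%) and 7 higher (8.33%) of 84 genes. Against wild-type B-2 cells 2 were called lower and 0 higher (edgeR), beside 13 lower (15.5%) and 6 higher (7.14%). In wild-type B-1a against B-2 cells 0 were called by edgeR (2 with an unadjusted p under 0.05, and 0 by DESeq2), beside 3 of 84 genes (3.57%). Over all 84 genes, 18 (21.4%) had an unadjusted p under 0.05. IGKV7-33 made up 0.191% of clonotypes in Igll1-/- B-1a, 1.09% in wild-type B-1a and 0.585% in wild-type B-2 cells on average, with log2 fold changes of −2.53 (SE 0.50, edgeR adjusted p = 0.00537) and −1.64 (SE 0.51, edgeR adjusted p = 0.0415). IGKV6-25 was lower in Igll1-/- B-1a than in wild-type B-2 cells by −1.37 (SE 0.41, edgeR adjusted p = 0.0386). With TMM, IGKV7-33 was called lower (−2.27, edgeR adjusted p = 0.0112) and IGKV6-23 higher (1.27, edgeR adjusted p = 0.0189) against wild-type B-1a, and 0 of the 9 against wild-type B-2. Over the 6 libraries, the Igkv genes whose share ran most like the summed share of the IGKV8 genes were IGKV4-57-1 (Pearson's r = 0.63), IGKV2-112 (0.57) and IGKV4-57 (0.57). These are values over 6 libraries that share their totals, and describe a resemblance only.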

How the data were processed

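The deposited tables hold 1 row per clonotype with the count of its reads, its V and J genes, CDR3, functionality and percent identity to the germline V gene, which the authors obtained with IMGT/High-V-QUEST. The sequencer is a MiSeq per the labels. The Igk libraries held 5701 to 8652 clonotypes from 214000 to 288396 reads, and 3 clonotypes make 0.0347% to 0.0526% of a library. Clonotypes listed with several V genes (5.72% to 6.68%) stayed in the totals but were counted to no gene. The Igh tables were not used. Members and gene lists were chosen with earlier results of these data known.

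Clonotypes per V gene, V-J pair, and V gene with CDR3 length, and reads per clonotype, were compared with edgeR 4.0.16 (R 4.3.3; quasi-likelihood test, 3 groups in 1 fit, at least 10 counts in at least 2 libraries, Benjamini-Hochberg adjustment over all features, threshold 0.05). Alternatives used DESeq2 1.42.0, TMM, other filters, reads, productive clonotypes, merging and leaving out each library. Named were the 7 genes, their called V-J pairs, otherwise the pair with most clonotypes, their largest productive clonotypes and the called genes of the surrounding list. The fits were tested on simulated data. No pair of replicates agreed within sampling noise (chi-square 283 on 87, 751 on 81 and 152 on 90 degrees of freedom in the order wild-type B-1a, Igll1-/-, B-2), so none was treated as a repeated deposit of 1 library. This comparison says nothing of how the replicates arose. Wilson intervals have a level of 95%.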

Additional observations from a re-analysis of the deposited data

Results flagged for a closer look

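Clonotypes listed jointly with IGKV8-19 and another V gene, mostly IGKV8-28, enter none of the comparisons above, yet were present in every library above the share that a count of 0 allows. They made up 0.456% and 0.589% of clonotypes in wild-type B-1a, 0.246% and 0.274% in Igll1-/- B-1a and 0.370% and 0.406% in wild-type B-2 libraries, and both Igll1-/- libraries were the lowest. The leading sequence, QNDYSYPLT with IGKJ5, held 2872 and 3344, 1718 and 2281, and 3609 and 2989 reads in these groups, against 1257 and 1589, 469 and 610, and 3072 and 3289 reads of QNDHSYPLT of IGKV8-28. When each clonotype was counted on the first V gene listed, IGKV8-19 was not called. It stood at −0.94 on the log2 scale (edgeR adjusted p = 0.120) in Igll1-/- against wild-type B-1a and −0.50 (edgeR adjusted p = 0.338) against wild-type B-2 cells. Which of the genes the reads came from was not tested.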

How the results depend on the processing

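The numbers of called features moved with the processing, in the order Igll1-/- against wild-type B-1a, Igll1-/- against wild-type B-2 and wild-type B-1a against B-2. Of Igkv genes 15, 19 and 3 were called by edgeR. In the first comparison this became 8 for unproductive clonotypes. In the second it became 8 with TMM, 8 with DESeq2, 10 for clonotypes of at least 10 reads and 8 for unproductive ones. In the third it became 11 with no filter, 5 for clonotypes of at least 2 reads and 6 after merging. Leaving out 1 library gave 7 to 31, 6 to 39 and 1 to 12. Of V-J pairs 21, 25 and 6 were called. The first became 11 by reads and 12 for at least 2 reads, the second 15 with DESeq2 and 8 with no filter, and the third 3 with no filter, 1 by reads, 3 for at least 2 reads and 10 for productive clonotypes. Leaving out 1 library gave 1 to 41, 0 to 47 and 0 to 27. Of single clonotypes by reads 1, 0 and 1 were called, against 162, 182 and 50 with DESeq2, and 0 in the third with at least 2 reads in 2 libraries. Leaving out 1 library gave 0 to 5, 0 to 4 and 0 to 1. Of groups by V gene and CDR3 length, an analysis chosen after seeing the data, 13, 8 and 3 were called. The first became 8 after merging and the third 5 with DESeq2 and 6 after merging. Leaving out 1 library gave 2 to 27, 4 to 23 and 2 to 14. The cause of these moves was not tested. Leaving out the stop-containing insert was also chosen after seeing the data. Departures from the group mean over 84 Igkv genes correlated at 0.03, −0.19 and 0.007 between equally numbered replicates of the compared groups. With only 2 libraries a group, these values cannot decide whether equal numbers mark a shared experiment. With the replicate as a block, 8 Igkv genes were called in the third comparison, 13 V-J pairs in the second and 3 in the third, and 0 clonotypes in the third, and IGKV8-28 against wild-type B-1a had an edgeR adjusted p of 0.0574, IGKV8-30 one of 0.00174 there and of 0.0204 between the wild-type groups. Of 861 log2 fold changes of named features under an alternative, 71 changed sign, none of them called in either fit, 36 lost the call and 25 gained it. With 2 libraries a group, and 51.7% to 60.4% of IGKV8 clonotypes resting on 1 read, depth and replicate number limit which differences in share could be seen.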
